A study of Mus musculus with 6 samples.

Results

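The 41 genes described here encode the enzymes and carriers that take glucose carbon through a plasma cell, and all 41 were found by symbol among the 13642 genes of the deposited expression table. They were grouped by function into glucose uptake (2 genes), glycolysis (16), lactate production and export (4), pyruvate entry into mitochondria (7), the citric acid cycle (8) and synthesis of UDP-N-acetylglucosamine through the hexosamine pathway (4). RNA was sequenced from long-lived plasma cells of C57BL/6J bone marrow, sorted for high CD138 and against markers of B cells, T cells and myeloid cells, in 3 libraries of young mice (2 to 3 months, female) and 3 of old mice (17 to 19 months, male). The young mice were from Jackson Laboratory or a UCLA animal facility, and the old ones were supplied by the NIA, so age, sex and source cannot be told apart. The series text names independent groups of mice for each age, and whether a library held 1 animal or a pool was not stated, so the spread between libraries may be partly technical. The labels name no transgene or treatment in either group.

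Glucose enters cells through facilitative transporters and is trapped by hexokinase, split by aldolase into trioses and oxidised to pyruvate. Pyruvate is either reduced to lactate and exported or carried into mitochondria, decarboxylated by pyruvate dehydrogenase and burned in the citric acid cycle. In plasma cells much of the glucose is drawn into amino sugars instead, because secreted antibodies carry N-glycans built from UDP-N-acetylglucosamine, and imported pyruvate is known to feed respiration in long-lived plasma cells.

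Plasma cell genes were high in every library, with Sdc1, the gene of CD138, between 174 and 407 FPKM and Jchain between 7514 and 19790. FPKM are fragment counts scaled by gene length and sequencing depth, so levels can be compared between genes. The 8 plasma cell markers were lowest in sum in old replicate 3, at 8956 FPKM against 19740 to 23100 in the other 5 libraries. That library also held the highest sum of 6 monocyte and macrophage genes, 583 FPKM. This sum was 67.1 to 140 in young and 180 to 583 in old libraries. Its largest gene was Ly86 in young replicate 1 and Lyz2 in the other 5, while Adgre1 and C1qb were at or near 0 in most libraries. Old replicate 3 had the highest sum of 5 erythroid genes, 745 against 0.320 to 264. Summed neutrophil genes were highest in old replicate 2, at 1292 FPKM, followed by old replicate 3 at 935, with 259 to 563 in the other 4. The 4 plasmacytoid dendritic genes summed to 258 FPKM in young replicate 3, against 28.1 to 70.6 in the other 5 libraries. The 6 B cell genes summed to 377 to 499 in young and 216 to 672 in old libraries. Of these, Ms4a1 was separated with old values higher and Pax5 with old values lower. Low FPKM values came in steps of whole reads, which put relative depth, with young replicate 1 as 1, at 0.92 to 1.04 in young and 1.10 to 1.15 in old libraries. Genes above 0 numbered 8934 to 10664 in young and 11310 to 12049 in old libraries.

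No member was called between old and young libraries. Of the 41 members, 40 had a mean of at least 1 FPKM over the 6 libraries and were tested with limma on log2(FPKM + 1), which understates changes of low genes. Limma called 0 of the 40 at a Benjamini-Hochberg adjusted p under 0.05, with member values from 0.736 to 0.995, and it called 0% of all 10687 genes tested. At an unadjusted p under 0.05 there were 3 members, Slc2a1, Idh3a and Pdk3, or 7.5% against 5.91% of all genes. Old values lay above all young values for 5 members, these 3 with Slc2a3 and Aldoa, or 12.5% against 8.78% of all genes. No member had every old value below every young value, against 3.42% of all genes. These shares are near those of all genes. A positive log2 change, old minus young, was seen in 30 of 40 members, or 75%, against 61.3% of all genes, and the member median was 0.46 beside 0.23 for all genes tested. Without old replicate 3 the member median was 0.28, with 0.16 for all genes tested. Quantile normalization put the median of all genes at -0.01 and their positive share at 49.4%, with 72.5% of members positive, and median-ratio scaling gave 57.0% and 70.0%. Leaving out single libraries moved the count at an unadjusted p under 0.05 to 6 (without young replicate 1) or 1 (without old replicate 1 or old replicate 2). The non-overlapping count moved to 16 (without young replicate 1), 11 (without old replicate 2) or 10 (without young replicate 3). Groups of fewer libraries overlap less often in any gene. The shares of all genes in these fits are not given here, so the counts are not a result about the members.

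**Figure D1:**
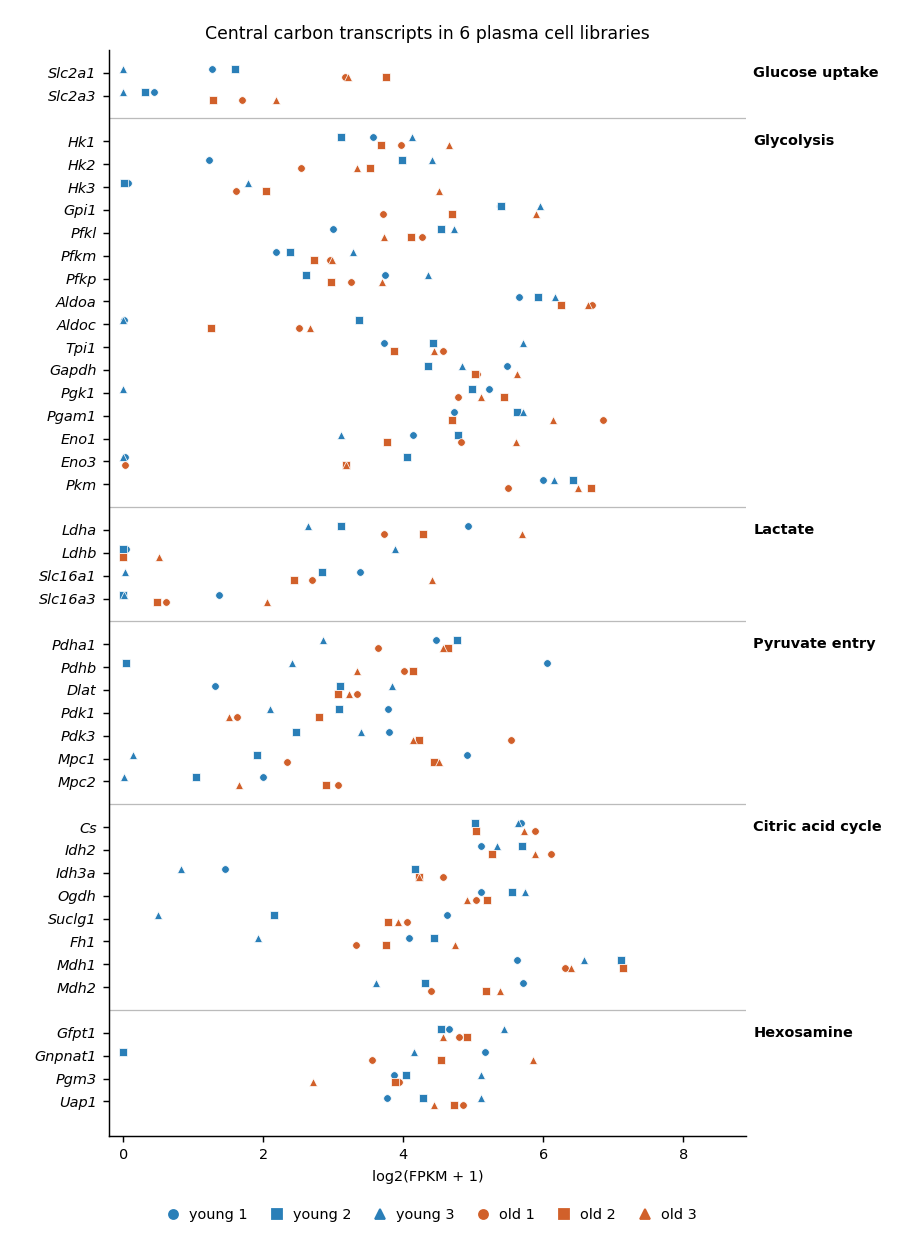
Level of each of the 41 transcripts as log2(FPKM + 1), horizontal axis, in 3 young (blue) and 3 old (orange) libraries, with the marker shape giving the replicate number. Young and old points are interleaved for most genes, and 8 points of young replicate 3 lie below 0.1 FPKM at the left edge.

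The glucose uptake genes both had old values above all young ones. Slc2a1, which encodes the widespread transporter GLUT1, was at 1.42, 2.03 and 0 FPKM in young replicates 1 to 3 and at 7.96, 12.5 and 8.23 in old replicates 1 to 3. The lowest old library thus lay above the highest young one. The log2 change was 2.42 ± 0.83 (SE), with a 95% interval of 0.56 to 4.27 and a limma adjusted p of 0.736. Slc2a3, the gene of the high-affinity transporter GLUT3, was at 0.362, 0.236 and 0 in young and 2.23, 1.44 and 3.54 in old libraries. Its groups did not overlap either, at levels below those of Slc2a1 in each library that had any, and the log2 change was 1.47 ± 0.77 (limma adjusted p = 0.841). Quantile normalization took the Slc2a3 change to 0.43 and its groups then overlapped, and without old replicate 3 its mean was too low for the test. Both genes were listed at 0 in young replicate 3. Slc2a1 made up 69.9% to 89.6% of the summed FPKM of the pair in the 5 libraries above 0. Without any single library the Slc2a1 log2 change stayed between 1.94 and 2.74. Slc2a3 is also transcribed in myeloid cells, and its highest value was in old replicate 3. The summed monocyte genes also did not overlap between the ages. Of the 4 such genes tested, however, only Lyz2 was separated, and 2 had positive and 2 negative log2 changes. The part of such cells in these values was not tested, and in sorted bulk RNA more transporter RNA per cell and a larger share of cells that carry it cannot be told apart.

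Promoter sequence is shown for the 3 non-overlapping members with an entry in the RefSeq promoter table (GRCm38.p6), as the 250 bases before the start site, 5′ to 3′ on the gene's strand. Capitals mark the core ACGTG, or its reverse complement, which lies within binding motifs of hypoxia-inducible factors, MYC and XBP1. The windows are chr4:119108495-119108744 (plus strand) for Slc2a1, chrX:93832151-93832400 (minus) for Pdk3 and chr7:126799255-126799504 (minus) for Aldoa, whose table entry has 3 start sites, of which the middle one is shown and 1 of the others lacks the core.
Slc2a1: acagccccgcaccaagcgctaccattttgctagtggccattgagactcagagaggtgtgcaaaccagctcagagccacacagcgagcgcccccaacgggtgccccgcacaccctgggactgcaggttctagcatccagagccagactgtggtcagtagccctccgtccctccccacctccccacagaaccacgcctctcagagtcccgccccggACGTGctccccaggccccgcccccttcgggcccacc
Pdk3: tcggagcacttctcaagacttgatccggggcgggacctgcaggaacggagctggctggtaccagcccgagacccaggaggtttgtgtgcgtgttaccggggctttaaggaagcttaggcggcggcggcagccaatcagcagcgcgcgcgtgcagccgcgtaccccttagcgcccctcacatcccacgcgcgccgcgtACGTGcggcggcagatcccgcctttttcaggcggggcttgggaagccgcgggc
Aldoa: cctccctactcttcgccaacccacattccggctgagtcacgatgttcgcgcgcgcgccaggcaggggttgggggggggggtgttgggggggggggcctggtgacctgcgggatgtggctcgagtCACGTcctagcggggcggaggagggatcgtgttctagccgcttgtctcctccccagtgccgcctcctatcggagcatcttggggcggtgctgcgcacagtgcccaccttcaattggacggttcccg
Each window held 1 match, 36 bases before the start in Slc2a1, 53 in Pdk3 and 126 in Aldoa, counted from the first base in capitals. The table held 38 of the 41 members, without Slc2a3, Idh3a and Gnpnat1. In any of their windows, 16 of the 38, or 42.1%, had ACGTG on either strand, against 25.6% of 8304 tested genes and 18.5% of all 27025 genes of the table. Members had 56 windows, or 1.47 a gene, against 1.28 in tested genes and 1.22 in the table, which favours a match in members. Counted by window, ACGTG was in 41.1% of member windows, 21.9% of those of tested genes and 16.6% of all. Ogdh, the member with the most windows, had the core in each of them, which raises the member share by window. For GCGTG, the other form of the hypoxia core, the shares by gene were 68.4%, 50.6% and 30.9%, and by window 58.9%, 45.0% and 28.2%. Windows differ in base composition, with a median GC content of 61.6% in members, 59.6% in tested genes and 52.4% in the whole table, and its part in these shares was not tested. A match describes the letters in the window and was not tested as a site.

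Hexokinase, which commits glucose to the cell as glucose 6-phosphate, was split between isozymes. Hk1, the mitochondrially bound housekeeping form, was at 10.9, 7.63 and 16.5 FPKM in young and 14.7, 11.8 and 24.2 in old libraries, with overlapping groups. Hk2, the inducible form, was at 1.34, 14.8 and 20.2 against 4.83, 10.5 and 9.15. It exceeded Hk1 in young replicates 2 and 3 and was below it in the other 4 libraries. Hk3, a form best known from myeloid cells, was at 0.0504, 0.00973 and 2.43 in young and 2.06, 3.11 and 21.7 in old libraries. Old replicate 3 held most of the Hk3 signal. The 10 neutrophil marker genes were split in that library. The granule protease genes Elane, Ctsg and Prtn3 and the peroxidase gene Mpo were highest there, with Elane at 220 FPKM against at most 19.7 elsewhere. S100a9 and Ngp were at their lowest there, at 40.2 and 38.4, Retnlg was listed at 0, and S100a8 and Camp were at 1.03 and 0.164. The 10 genes summed to 428 to 563 FPKM in young and 259 to 1292 in old libraries, and 7 of the 10 had positive log2 changes. The log2 change of Hk3 was 2.10 ± 1.03 (limma adjusted p = 0.839). Leaving out single libraries gave 1.2 (without old replicate 3) to 2.68 (without young replicate 3). The part of myeloid cells in the Hk3 value was not tested.

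At the next steps, phosphoglucose isomerase and phosphofructokinase, the groups overlapped. Gpi1, the isomerase, was at 40.9, 40.97 and 61.01 FPKM in young and 12.1, 24.8 and 58.9 in old libraries. Old replicates 1 and 2 lay below every young library and old replicate 3 lay among them, with a log2 change of -0.81 ± 0.55 (limma adjusted p = 0.852). It was -0.28 without old replicate 1 and -1.38 without old replicate 3. Of the phosphofructokinases, which form the main controlled step of glycolysis, the liver type Pfkl was highest in 5 of 6 libraries. It was at 7.02, 22.3 and 25.4 in young and 18.3, 16.3 and 12.2 in old libraries. Pfkp, the platelet type, was at 12.3, 5.14 and 19.4 against 8.52, 6.85 and 12, and led only in young replicate 1. Pfkm, the muscle type, was at 3.56, 4.21 and 8.72 against 6.77, 5.64 and 6.91. Pfkm was the lowest in share, and made up 13.3% to 22.2% of the summed FPKM of the family in the 6 libraries. Group ranges overlapped for all 3 isozymes.

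**Figure D2:**
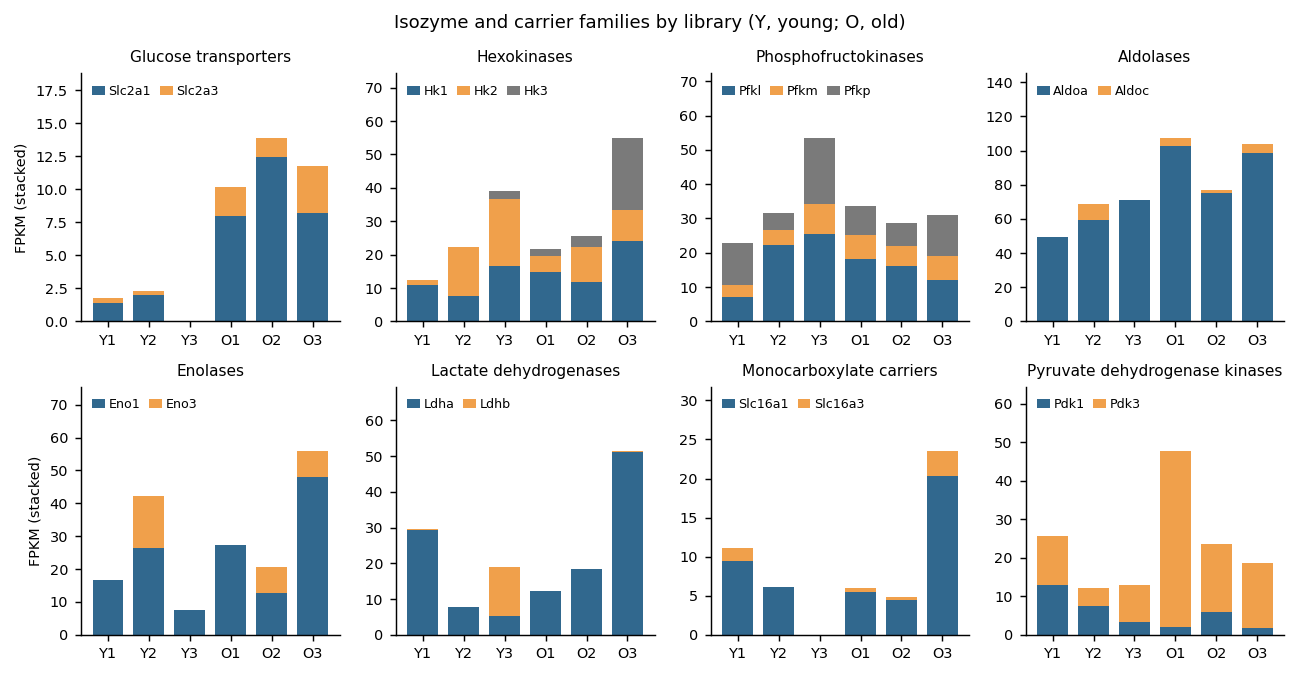
Stacked FPKM (vertical axis, from 0) of the 8 isozyme or carrier families in young (Y1 to Y3) and old (O1 to O3) libraries, 1 colour per gene, member genes only. Slc2a1 and Slc2a3 sum to 0 to 2.27 FPKM in the young group and 10.2 to 13.9 in the old, Ldhb exceeds Ldha only in young replicate 3, and the Hk3 layer is thickest in old replicate 3.

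Aldolase was almost wholly of the A type. Aldoa, the ubiquitous form, was at 49.3, 59.5 and 71.2 FPKM in young and 103, 75.3 and 98.5 in old libraries, or 60.0 ± 10.9 against 92.2 ± 14.8 (SD, n = 3). The groups did not overlap, though the nearest libraries, young replicate 3 and old replicate 2, differed little. Its log2 change was 0.61 ± 0.33, with a 95% interval of -0.12 to 1.34 and a limma adjusted p of 0.841. Aldoc, the brain-type form, was at 0.0119, 9.28 and 0 against 4.68, 1.38 and 5.33, and gave at most 13.5% of the summed FPKM of the pair in any library. After median-ratio scaling between libraries the Aldoa groups overlapped.

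The lower part of glycolysis was abundant and uneven. Pkm, pyruvate kinase, was at 63.1, 85.2 and 70.5 FPKM in young and 44.0, 102 and 89.2 in old libraries, with a log2 change of 0.03 ± 0.39 (limma adjusted p = 0.995) and a 95% interval of -0.84 to 0.89. Its sign turned under median-ratio scaling and without young replicate 1, old replicate 2 or old replicate 3. The table gives 1 value per gene, so the M1 and M2 splice forms were not separated. Tpi1, Gapdh and Pgam1, which interconvert trioses, oxidise glyceraldehyde 3-phosphate and move the phosphate group, ranged from 12.2 to 51.3, from 19.5 to 48.6 and from 24.9 to 115 FPKM over the 6 libraries, with overlapping groups. Pgk1, phosphoglycerate kinase on chromosome X, was at 36.5 and 30.6 in young replicates 1 and 2, at 26.5, 42.2 and 33.4 in old libraries, and listed at 0 in young replicate 3. The positive log2 change of Pgk1, 1.702 ± 1.17, includes that 0. Eno1, the main enolase, was at 16.6, 26.6 and 7.66 against 27.2, 12.6 and 47.9, and exceeded Eno3 in all 6 libraries. Eno3, the muscle form, was at 0.0218, 15.6 and 0 against 0.0198, 8.10 and 8.09, so it was either nearly silent or at several FPKM, in both groups alike. Several of these genes have near-identical copies, whose handling in counting was not given in the sources used here. Eno1b, a copy of Eno1, was at 0.424 FPKM in young replicate 1 and 0 elsewhere. The sperm paralogue of Gapdh, Gapdhs, reached 7.08 and 10.1 FPKM in old replicates 1 and 2 and was listed at 0 in the other 4 libraries.

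At the lactate step the groups overlapped for each gene. Ldha, the subunit that favours lactate formation, was at 29.5, 7.64 and 5.23 FPKM in young and 12.2, 18.5 and 51.1 in old libraries, a log2 change of 1.01 ± 0.75 (limma adjusted p = 0.854). Ldhb, the subunit that favours pyruvate formation, was at 0.0267, 0 and 13.8 against 0, 0 and 0.428. Young replicate 3 was thus the single library with Ldhb above 1 FPKM, where it gave 72.5% of the summed FPKM of the pair, against at most 0.8% in the other 5. The monocarboxylate carrier gene Slc16a1 (MCT1) was at 9.46, 6.13 and 0.0204 against 5.49, 4.44 and 20.4. Slc16a3, which encodes the lactate exporter MCT4, was at 1.59, 0 and 0.00841 against 0.534, 0.396 and 3.15. Its mean of 0.948 FPKM kept it out of the test. Ldha, Slc16a1 and Slc16a3 were all highest in old replicate 3, the library with the lowest plasma cell markers. Without that library the log2 changes of Ldha and Slc16a1 were 0.45 and 0.49. Young libraries moved them as well, to 0.55 and 0.08 without young replicate 3 and to 1.7 and 1.75 without young replicate 1. The part of other cells in these values was not tested.

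Genes of pyruvate entry included the widest spread among abundant members. The mitochondrial carrier subunits Mpc1 and Mpc2 ranged from 0.105 to 29.1 and from 0.00594 to 7.41 FPKM, with both minima in young replicate 3. Pdha1, the X-linked alpha subunit of pyruvate dehydrogenase, was at 21.1, 26.3 and 6.24 in young and 11.4, 23.9 and 22.8 in old libraries. Pdhb, its beta subunit, ran from 0.0281 to 65.2 FPKM within the young group alone and from 9.08 to 16.6 in the old group. The 2 subunits assemble in equal numbers, and their ratio was not steady, with Pdhb above Pdha1 in young replicate 1 and old replicate 1 and below it in the other 4. Dlat, the E2 core of the complex, ranged from 1.49 to 13.3.

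Of the kinases that switch pyruvate dehydrogenase off, the members Pdk1 and Pdk3 had log2 changes of opposite sign, neither of them called. Pdk3, on chromosome X, was at 12.8, 4.52 and 9.54 FPKM in young and 45.7, 17.6 and 16.7 in old libraries, with no overlap. Its log2 change was 1.42 ± 0.62, with a 95% interval of 0.04 to 2.80 and a limma adjusted p of 0.839. Pdk1, a target of hypoxia-inducible factors, was at 12.8, 7.51 and 3.29 against 2.09, 5.99 and 1.84, and its log2 change was -1.01 ± 0.83 (limma adjusted p = 0.854). Without single libraries the change ran from 0.97 to 1.7 for Pdk3 and from -1.46 to -0.62 for Pdk1. Under quantile normalization the Pdk1 change was -1.71 and its old values lay below all young ones, still without a call. Pdk2, a further kinase outside the 41 genes, was at 4.15, 0.0616 and 1.37 against 3.93, 11.5 and 8.72, and exceeded Pdk1 in every old library. Pdk4 was listed at 0 in 5 libraries and at 0.0116 in young replicate 1. Of the summed FPKM of all 4 kinases, Pdk3 gave 37.4% to 67.2% in young and 50.2% to 88.4% in old libraries, so this share overlapped. Pdk1 and Pdk3 were both at 12.8 FPKM in young replicate 1. Young libraries were female and old ones male, and the part of sex in the values of the X-linked gene was not tested.

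Citric acid cycle genes included the 2 members of lowest spread, Ogdh and Cs. Summed over its 8 genes it stood at 258, 326 and 251 FPKM in young and 304, 324 and 320 in old libraries. Mdh1, the cytosolic malate dehydrogenase that shuttles NADH equivalents, was the most abundant of all 41 members on average. It was at 48.3, 137 and 94.8 in young and 78.3, 141 and 83.3 in old libraries, with a log2 change of 0.18 ± 0.43 (limma adjusted p = 0.959). Cs, citrate synthase, was at 43.6 ± 10.5 in young and 47.2 ± 13.7 in old libraries, Idh2 at 41.2 ± 8.75 and 54.6 ± 15.5, and Ogdh, of the oxoglutarate dehydrogenase complex, at 44.1 ± 9.67 and 32.2 ± 3.33 (SD, n = 3). These 3 genes had coefficients of variation of 24.5%, 28.1% and 24.1% over the 6 libraries, and the log2 change of Cs, 0.10, turned negative under median-ratio scaling and array weights, and without young replicate 2 or old replicate 1. Idh3a, the catalytic subunit of the NAD-dependent isocitrate dehydrogenase, was at 1.74, 16.9 and 0.768 against 22.6, 17.8 and 17.7. Its old libraries were close together, and young replicate 2 lay just beneath them. The log2 change of Idh3a was 2.19 ± 0.89 (limma adjusted p = 0.839), and its groups overlapped after median-ratio scaling or quantile normalization. Suclg1, of succinyl-CoA ligase, was at 23.6, 3.46 and 0.408 in young and 15.6, 12.8 and 14.3 in old libraries. Fh1 and Mdh2, fumarase and the mitochondrial malate dehydrogenase, ranged from 2.78 to 25.6 and from 11.2 to 51.4, both lowest in young replicate 3.

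None of the 4 hexosamine genes was called by limma, and their groups overlapped. Gfpt1, the entry and rate-limiting enzyme of the pathway and a known XBP1 target, was at 24.1, 22.2 and 42.5 FPKM in young and 26.7, 29.2 and 22.7 in old libraries. Its log2 change was -0.12 ± 0.44, with a 95% interval of -1.09 to 0.85 and a limma adjusted p of 0.981. Xbp1 itself was at 924, 903 and 795 against 728, 915 and 414. Gnpnat1, which acetylates glucosamine 6-phosphate, was at 35.0, 0 and 16.9 against 10.7, 22.3 and 56.9. Pgm3, the phosphoacetylglucosamine mutase, was at 13.6, 15.4 and 33.5 against 14.4, 13.8 and 5.56, and was lowest in old replicate 3. Its log2 change was -0.82 ± 0.60 (limma adjusted p = 0.854), and it was -0.43 without old replicate 3 and -0.44 without young replicate 3. Uap1, which forms UDP-N-acetylglucosamine, was at 12.6, 18.4 and 33.5 against 27.9, 25.3 and 20.6. Gfpt1, Pgm3 and Uap1 were each highest in young replicate 3, while the 4 genes summed to 89.3 ± 35.4 in young and 92.0 ± 13.1 in old libraries.

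**Figure D3:**
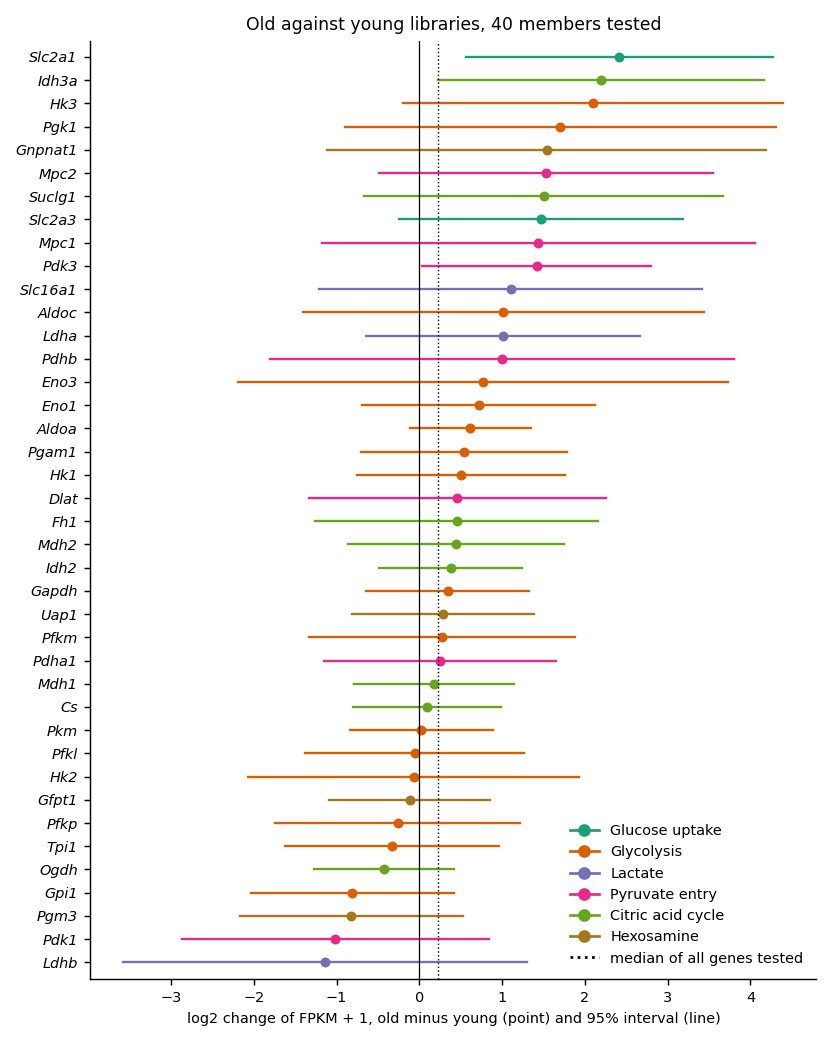
Log2 change of FPKM + 1, old minus young (points), with 95% intervals from limma (lines) for the 40 members tested, coloured by step. The intervals of Slc2a1, Idh3a and Pdk3 lie above 0 before adjustment, none of the 40 passed after it, and the dotted line is the median of all genes tested, 0.23.

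By step, the median log2 change was 1.94 for the 2 uptake genes, both positive, and 0.42 for glycolysis, where 11 of 16 were positive. It was 1.01 for the 3 lactate genes tested (2 positive), 0.99 for pyruvate entry (6 of 7 positive), 0.41 for the citric acid cycle (7 of 8 positive) and 0.08 for the hexosamine genes (2 of 4 positive). Each is set beside the 0.23 of all genes tested, of which 61.3% were positive, and limma called 0 in every step. Level matters for that background, because the median of all tested genes was 0.57 at a mean of 1 to 5 FPKM, 0.25 at 5 to 20, 0.05 at 20 to 50 and -0.03 at 50 or more. In the same ranges the members had medians of 1.47 (5 members), 0.48 (18), 0.34 (13) and 0.36 (4).

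Values near 0 were more frequent in the young libraries, among members and over the whole table. Below 0.1 FPKM there were 4, 5 and 8 members in young replicates 1 to 3 and 2, 1 and 0 in old replicates 1 to 3. Of the 12 members concerned, 10 were low in young libraries only, and the exceptions were Ldhb and Eno3. The whole table had 3520, 4469 and 5430 genes below 0.1 FPKM in young and 3141, 2369 and 2096 in old libraries. With exon length from GENCODE M21, the 0 of Pgk1 in young replicate 3 stood beside about 1981 and 1724 reads in the other young libraries, and the Gnpnat1 value of 0 in young replicate 2 beside about 4012 and 1782. About 2.7 reads of Pdhb in young replicate 2 stood beside 6092 in young replicate 1, and about 2 reads of Slc16a1 in young replicate 3 beside 1013. These 4 genes were chosen after their values were seen. Relative depth, read from low values as above, was 0.92 to 1.15 over the 6 libraries. Pgk1 serves every cell, so a 0 is given here as a listed value and not as a measured absence. Only 6 of the 12 had a mean of at least 5 FPKM, and these gave 1, 2 and 4 low values in young and 1, 0 and 0 in old libraries. Among the 35 members at that level, 17.1% had a library below 0.1, close to the 17.3% of all 7400 such genes. The median coefficient of variation of these 35 members over the 6 libraries was 52.5%, against 55% for the 7400 genes, with extremes of 24.1% in Ogdh and 129% in Pdhb. The source of these near-absent values was not tested, and libraries were made from 5 ng of RNA per sample.

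**Figure D4:**
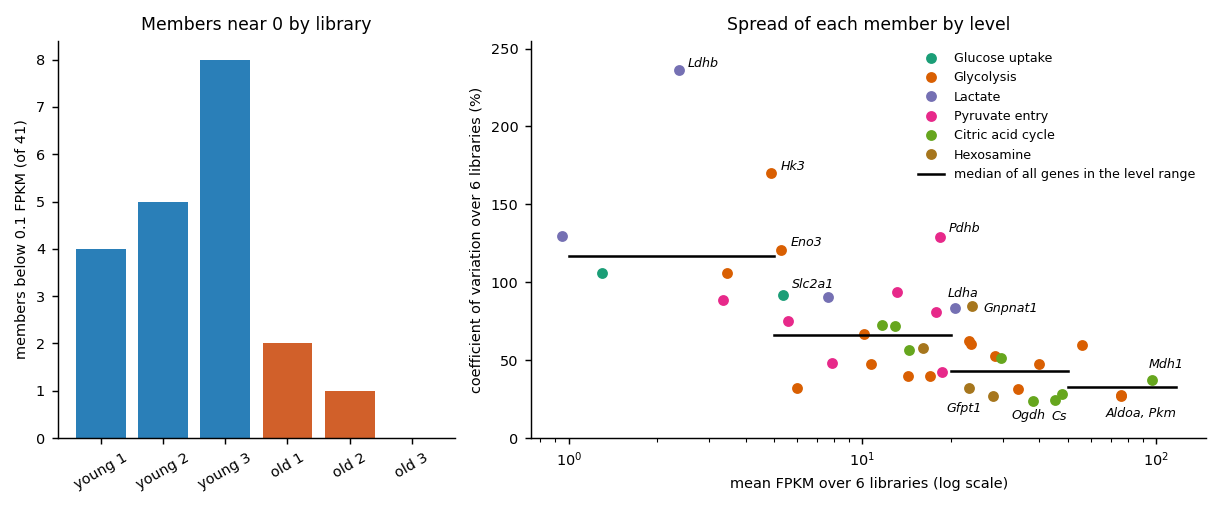
Left, members below 0.1 FPKM in each library, out of 41 (bars from 0, young blue and old orange). Right, coefficient of variation over the 6 libraries against mean FPKM on a log scale for each member, coloured by step, with black lines at the median of all genes in each level range. The counts run from 8 in young replicate 3 to 0 in old replicate 3, Ogdh, Cs, Gfpt1, Pkm and Aldoa have the lowest coefficients of variation, and Pdhb has the highest among members above 5 FPKM.

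Other genes of the same pathways gave 0 limma calls as well. Among 15 further glycolysis genes, 9 log2 changes were positive and the median was 0.64. Tigar, a fructose-bisphosphatase that lowers glycolytic flux, was at 0, 0.932 and 0 FPKM in young and 17.4, 2.71 and 5.203 in old libraries. Minpp1, an inositol polyphosphate phosphatase, had every old value below every young one, at 33.9, 22.4 and 38.5 against 9.07, 20.9 and 8.56. Of 28 further pyruvate and cycle genes, 19 were positive, with a median of 0.52. Dld, the E3 subunit shared by the pyruvate and oxoglutarate dehydrogenases, was at 23.5, 8.18 and 17.8 against 50.02, 45 and 68.2, a log2 change of 1.76 (limma adjusted p = 0.680). Its lowest old library lay above its highest young one. Sdhd, a membrane anchor of succinate dehydrogenase, was at 9.65, 25.3 and 0 against 31.6, 33.2 and 35.5. Pck2, the mitochondrial phosphoenolpyruvate carboxykinase and the most abundant gene of that list, was at 53.1, 46.1 and 84.3 against 67.3, 45.97 and 36.6. Of 13 further amino sugar genes, 11 were positive, with a median of 0.27. The O-GlcNAcase gene Mgea5, the highest of these, was at 54.5, 69.7 and 58.9 against 85.6, 60.5 and 73.3. Ugp2, which makes UDP-glucose, was at 2.13, 22.9 and 2.56 against 25.6, 15.8 and 5.42. Dpagt1, which starts the lipid-linked sugar chain of N-glycans, was at 2.72, 0.476 and 0 against 0.773, 4.86 and 13.2. Both overlapped between groups.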

How the data were processed

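Values are FPKM as deposited by the authors, 1 column per library. The submitters' processing notes name bcl2fastq 2.17, STAR and DESeq2 and the builds GRCm38 and mm10 without roles. The counter, the annotation and the use of strand are not given in the sources used here. Columns were matched to samples by title. Gene positions and exon lengths came from GENCODE M21 on GRCm38, where 99.9% of identifiers matched without the version. Depth was read from steps of low values (ratios of small whole numbers, matched within 0.1%), no reads were recovered and no count model was run.

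Genes with a mean of at least 1 FPKM over the 6 libraries were tested with limma 3.58.1 (R 4.3.3, mean-variance trend, two-sided) on log2(FPKM + 1) of all 3 young and 3 old libraries, with Benjamini-Hochberg adjustment over all 10687 genes. The fit was run on simulated data with a spread between libraries set smaller than most members show. That run cannot tell how many changes the fit would miss in these libraries. Python 3.11.15, numpy 2.4.6, pandas 2.3.3 and matplotlib 3.10.9 made tables and figures. Members and lists were chosen with earlier results of these data known, so lists are described by counts and medians. Values in every library are given for the 3 members of smallest p in each direction, the most abundant member of each step and the isozyme families, and for further pathway lists the most abundant gene and up to 2 of smallest p. Marker lists are given mainly by sums. Genes given in full beyond that rule were chosen after their values were seen. Alternatives covered the filter, the pseudocount, scaling, moderation, weights, the replicate block and leaving out each library.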

Additional observations from a re-analysis of the deposited data

How the results depend on the processing

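Members called stayed at 0 under all 14 alternatives run, with a lowest limma adjusted p of 0.43. Slc2a1 kept its direction in all 14 and an unadjusted p under 0.05 in 13, Idh3a in 8 and Pdk3 in 7. Genes called over the whole table numbered 1 under quantile normalization, robust moderation or array weights, and 0 to 7 when single libraries were left out. Non-overlapping members numbered 3 after median-ratio scaling and 6 to 16 without single libraries, where fewer samples overlap less often, and members at an unadjusted p under 0.05 numbered 1 to 6. The matching shares of all genes are not given here, so these counts cannot be set against them. The member median ran from 0.279 to 0.564 without single libraries. The log2 change turned to 0.0514 for Hk2 with a pseudocount of 0.1, to -0.0359 for Pfkm under quantile normalization, and to 0.367 for Hk2, 0.159 for Pfkl and 0.0467 for Gfpt1 under array weights. Without single libraries it ran from -1.05 to 0.534 for Hk2, -0.599 to 0.261 for Pfkl, -0.737 to 0.13 for Pfkp, -0.336 to 0.621 for Pdha1, -0.229 to 0.515 for Mdh1 and -0.288 to 0.166 for Gfpt1. In all, 15 of 40 members turned sign without some single library, the 9 others being Tpi1, Pkm, Pdhb, Dlat, Cs, Fh1, Mdh2, Gnpnat1 and Uap1. The cause of these turns was not tested. With the replicate number as a block (replicate block), limma called 0 members and 0 genes, 3 members had an unadjusted p under 0.05 and the median was 0.456. Deviations of same-numbered libraries correlated at -0.0344, 0.0203 and -0.00412, so no pairing by number was seen over all genes. This check cannot show that nothing was shared, because a batch that moved few genes would leave it near 0. The labels state no batch. Values of a few reads carry counting error that cannot be separated from amplification.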

Other observations

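The pentose phosphate pathway branches from glucose 6-phosphate to make NADPH and ribose. Limma called 0 of its 11 genes. Of these, 9 had positive log2 changes, where 61.3% of all genes did, and their median was 0.30 beside 0.23 for all genes. Taldo1, transaldolase and the most abundant of them, was at 69.2, 60.3 and 61.8 FPKM in young and 33.5, 69.4 and 84.8 in old libraries. Rbks, ribokinase, was at 0, 0.0568 and 1.18 against 14.1, 10.5 and 6.48, with no overlap (limma adjusted p = 0.680). Prps2, a phosphoribosyl pyrophosphate synthetase gene on chromosome X, was at 19.5, 5.83 and 27.3 against 2.04, 7.27 and 10.8.

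Of 18 regulators of glucose use tested, 10 were positive, with a median of 0.08, and limma called 0 and 0 had groups that did not overlap. Chosen after their values were seen, Hif1a was at 11.2, 25.3 and 8.49 FPKM in young and 6.996, 11.04 and 14.9 in old libraries, Myc at 28.5, 13.8 and 48.4 against 21.01, 9.31 and 50.3, and Txnip, which restrains glucose uptake, at 70.01, 60 and 197 against 107.5, 136 and 90.4. Egln2, an oxygen-sensing prolyl hydroxylase gene, was at 4.502, 40.4 and 28.3 against 26.1, 36.5 and 36.4. Of 11 hypoxia targets tested outside the 41 genes, 8 were positive with a median of 0.93 beside 0.23 for all genes, and 0 were called or separated. Among all genes 61.3% were positive. That median is the value of Car9, which was near 0 outside old replicate 3. The 3 negative genes were Higd1a (-0.61), Vegfa (-0.60) and Kdm3a (-0.40), and Higd1a was lowest in old replicate 3. The hypoxia list summed to 211 FPKM in old replicate 3, the library with the lowest plasma cell markers, against 94.7 to 147 in the other 5. Bnip3 was at 30.6 there against at most 0.241 elsewhere, Car9 at 6.12 against at most 0.0385, and Ero1l was highest there. The part of other cells in these values was not tested. Bnip3l, the most abundant, was at 46.8, 32.9 and 45.2 against 66.7, 37.0 and 57.2. Mxi1, a MYC antagonist gene, was at 16.4, 10.6 and 0.472 against 9.3, 15.8 and 32.9, and Ndrg1, a stress-response gene, at 0.22, 0 and 0 against 0.0057, 2.64 and 7.76. Both were highest in old replicate 3.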
